A study of Mus musculus with 5 samples.

Results

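The 9 long noncoding RNAs Malat1, Neat1, Miat, Rmst, Sox2ot, Pantr1, Gas5, Snhg1 and Pvt1 were described in neural stem cells (NSCs) and in STO fibroblasts. They are 9 of the 25415 genes in the deposited tables, chosen by name as noncoding RNAs known from the nucleus, from neural cells or from growing cells. The choice was made with earlier results of these data known. Each was found by matching the RefSeq identifiers of the tables to the gene symbol, and its rows, 1 to 4 for each RNA and 16 in all, were summed by symbol within each library. The study mapped the folding of the genome in female germline stem cells, other stem cells and STO cells, and RNA-seq of the NSCs and the STO cells is what was examined here. Expression of the other cell types was not analysed here. The NSC group (2 libraries) was primary cells from embryonic mouse cortex, grown as a monolayer on poly-L-ornithine and laminin with EGF, bFGF, heparin and B27, at passages 5 to 8. The STO group (3 libraries) was the thioguanine- and ouabain-resistant line of SIM mouse embryonic fibroblasts, grown in DMEM with serum for more than 30 passages and used in the study as a feeder layer. The strain of all 5 samples was labelled C57BL/6, a label that was not checked against the SIM origin of the STO line. No treatment set the groups apart. The origin and drug resistance of the STO line, medium, passage number and cell type differ together between the groups and cannot be told apart. The sources used here do not say whether replicates were separate cultures, so p-values measure only the spread between these samples, which may be technical.

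Long noncoding RNAs are spliced or unspliced transcripts with no long reading frame, and many act where they are made. Malat1 gathers in nuclear speckles, which store splicing factors, and the long form of Neat1 is the scaffold on which paraspeckles form. Miat, Rmst, Sox2ot and Pantr1 are transcribed in the developing nervous system, where Rmst binds the transcription factor SOX2, Miat binds splicing regulators, and Sox2ot and Pantr1 are transcribed beside the genes of the neural transcription factors SOX2 and POU3F3. Gas5 and Snhg1 carry small nucleolar RNAs (snoRNAs, guides for the chemical modification of ribosomal RNA) in their introns, and their spliced RNA is a known substrate of nonsense-mediated decay (NMD) when cells translate. Pvt1 is transcribed next to the growth gene Myc.

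Values are FPKM, fragments scaled by the length of the transcript and the depth of the library, so levels of different genes can be set side by side within a library. This holds less for Malat1, which has no usual poly(A) tail and was measured with a kit that selects such tails, so that its level, its place in an order and its ratio to Neat1 are those of the RNA the kit captured. The files give no read counts, so the total depth is unknown, and rows with few fragments placed the depth of the other libraries at 0.717 to 1.10 times that of NSC replicate 1. Pearson's r across genes was 0.994 between the NSC replicates, 0.994 to 0.995 between STO replicates and 0.578 to 0.585 between the groups. The 7 neural stem cell markers, among them Nes, Sox2 and Fabp7, summed to 3834 and 4050 FPKM in NSCs and to at most 0.0746 FPKM in STO cells, and the 7 fibroblast markers, among them Col1a1 and Col3a1, summed to 1572 to 1712 FPKM in STO cells and to 5.14 and 5.25 FPKM in NSCs. The NSC libraries also held RNA of genes listed as markers of differentiated neural cells. Whether it came from such cells was not tested. The sum was 120 FPKM in both libraries for 7 neuron markers, most of it Map2, with Rbfox3 at 0.405 and 0.625 FPKM and Stmn2 at 0.0610 and 0.100 FPKM. It was 221 and 225 FPKM for 5 astrocyte markers and 129 and 132 FPKM for 5 oligodendrocyte markers, none of which was at 0 in NSCs. In STO cells these 3 sums were 12.3 to 12.9, 0.372 to 0.614 and 0.977 to 1.14 FPKM. Aldoc (155 and 150 FPKM in NSC replicates 1 and 2) and Aldh1l1 (47.0 and 45.8) made up most of the astrocyte sum. Gfap, a negative control for NSCs in the study, was at 15.9 and 16.9 FPKM. Mbp (83.4 and 88.3 FPKM) made up most of the oligodendrocyte sum, and Mog was at 0.503 and 0.578 FPKM. Tubb3 was most of the neuron sum in STO cells (8.57, 7.84 and 8.49 FPKM) and measured 9.25 and 8.14 FPKM in NSCs. Microglia and endothelial markers summed to less than 0.6 FPKM in every library.

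The ends of Malat1 and Neat1 are shown because the libraries were made with a kit that selects polyadenylated RNA. Malat1 and the long form of Neat1 are not polyadenylated in the usual way. RNase P cuts them ahead of a tRNA-like fold, and a U-rich stretch pairs with an A-rich stretch at the end in a triple helix that protects the RNA. In the lines below, from the minus strand of mm9, capitals mark the letters TTTGCTTTT and AAAAAGCAA in Malat1 (chr19:5795924-5796101) and in the last bases of the long Neat1 row (chr19:5824710-5824829), and AATAAA, the usual polyadenylation signal, at the end of the short Neat1 row (chr19:5842296-5842355). The Malat1 line runs on through the tRNA-like fragment, the mascRNA.
Malat1 3′ end: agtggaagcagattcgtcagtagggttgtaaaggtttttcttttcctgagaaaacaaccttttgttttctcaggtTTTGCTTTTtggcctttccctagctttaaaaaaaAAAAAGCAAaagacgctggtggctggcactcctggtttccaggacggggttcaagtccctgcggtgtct
Neat1 long 3′ end: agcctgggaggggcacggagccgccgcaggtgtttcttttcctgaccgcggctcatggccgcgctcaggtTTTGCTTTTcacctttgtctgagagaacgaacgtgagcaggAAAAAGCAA
Neat1 short 3′ end: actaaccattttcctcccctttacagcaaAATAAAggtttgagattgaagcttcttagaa
Searched on the transcript strand in the last 400 bases of 82807 GENCODE transcripts of mm9, AAAAAGCAA was present in 0.671% and TTTGCTTTT in 0.891%, and AATAAA was present in the last 60 bases of 34.8%. These letters are a description of the ends, not a measured structure or cleavage.

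The repeats of Miat are shown because its binding partners are among the genes compared below. TACTAAC is the branch point sequence that the splicing factor SF1 recognises, and the protein QK reads related letters. In mm9, Miat (chr5:112642248-112657968, minus strand, 7 exons in GENCODE) held 6 copies of TACTAAC on the transcript strand, all in its last exon of 7008 bases, in the stretches chr5:112646324-112646485 and chr5:112645767-112645837, with the copies in capitals.
Miat stretch 1: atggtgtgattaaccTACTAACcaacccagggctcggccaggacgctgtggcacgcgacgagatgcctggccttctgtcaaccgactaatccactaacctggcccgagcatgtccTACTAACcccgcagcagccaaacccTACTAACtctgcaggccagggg
Miat stretch 2: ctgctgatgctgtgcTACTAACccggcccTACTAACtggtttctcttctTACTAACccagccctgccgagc
Of 5653 noncoding GENCODE transcripts, 2.95% held the letters at all, and Miat was the only 1 with 3 copies within 150 bases (0.0177%).

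Start sites are shown for Gas5 and Snhg1 because growth-regulated host genes often begin with a C followed by a run of pyrimidines, the 5′ TOP element, which ties translation of an RNA to growth signals. RefSeq promoters (GRCm38.p6) were given for 4 of the 9 RNAs, Gas5, Miat, Malat1 and Snhg1, and were not given for Neat1, Rmst, Sox2ot, Pantr1 and Pvt1. The lines below show 50 bases before and 40 bases from each start on the plus strand, with the first 5 transcribed bases in capitals, for both starts of Gas5 (chr1:161034551-161034640 and chr1:161035116-161035205) and for Snhg1 (chr19:8723437-8723526).
Gas5 start 1: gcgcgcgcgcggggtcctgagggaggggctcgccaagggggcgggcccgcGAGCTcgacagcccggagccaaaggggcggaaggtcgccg
Gas5 start 2: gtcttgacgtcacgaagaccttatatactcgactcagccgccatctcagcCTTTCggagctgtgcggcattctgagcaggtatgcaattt
Snhg1 start: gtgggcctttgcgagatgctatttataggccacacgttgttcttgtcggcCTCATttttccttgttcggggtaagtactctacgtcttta
A C followed by 4 bases that are each C or T stood at the start in 823 of 32851 promoters (2.51%), among them the second start of Gas5 and the start of Miat. It did not stand at the first start of Gas5, nor at the starts of Snhg1 and Malat1. The starts of Gas5 are given on another build than the measured rows of Gas5 and were not matched to the start of any of them.

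The first question was in which of the cell types each RNA was higher. Of the 8 RNAs that reached a mean of 1 FPKM in either cell type, Gas5, Pantr1, Miat, Sox2ot and Pvt1 were higher in NSCs and Malat1, Neat1 and Snhg1 were lower, and the NSC and STO values of none of the 8 overlapped. Rmst was listed at 0 in every library and was not tested. The test was limma on log2(FPKM + 1) with Benjamini-Hochberg adjustment over 12293 genes at a threshold of 0.05, and differences are NSC minus STO on that scale, which understates the change of low genes. Of all genes tested, 85.6% passed, 43.7% higher and 41.9% lower in NSCs, and 89.9% had values that did not overlap between the groups, so that 8 calls in 8 and no overlap are close to what genes at large gave. Of 346 tested genes with noncoding RefSeq identifiers only, 85.3% passed, 44.8% higher and 40.5% lower. An absolute difference of at least 2 besides was met by 16% of genes, and by Neat1, Pantr1, Miat and Pvt1. The median difference was 1.55 over the 8 RNAs and 0.0228 over all genes. Because the RNAs were chosen with earlier results known, these medians are a description only. By size, 59 genes (0.480%) had a difference at or below that of Neat1 and 112 (0.911%) a difference at or above that of Pantr1.

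**Figure D1:**
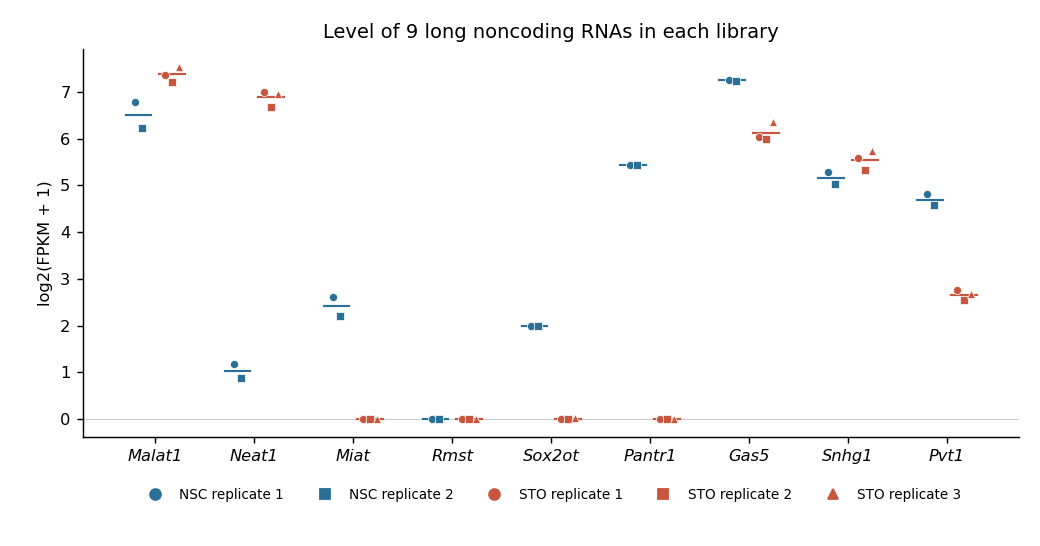
Level of each long noncoding RNA as log2(FPKM + 1), with a point for each library (NSC blue, STO red, marker shape by replicate) and a bar at the group mean. Gas5 led in NSCs and Malat1 in STO cells, Neat1 lay between 101.6 and 127 FPKM in STO cells and near 1 FPKM in NSCs, and Miat, Sox2ot and Pantr1 had values only in NSCs apart from 0.0196 FPKM of Sox2ot in STO replicate 3.

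Malat1 (chr19:5795690-5802672, minus strand, a single exon in its main GENCODE transcript) measured 109 and 73.3 FPKM in NSC replicates 1 and 2 and 164, 148 and 184 FPKM in STO replicates 1, 2 and 3. All 3 STO libraries lay above both NSC libraries. The means were 91.0 ± 25.0 (SD, n = 2) and 165 ± 18.4 FPKM (SD, n = 3), the STO mean was 1.82 times the NSC mean, and the difference was -0.88 ± 0.18 (SE, 95% interval -1.31 to -0.44, limma adjusted p = 0.00352). The NSC replicates differed 1.48-fold, 12.8 times the standard deviation that their deposited confidence intervals give, so the spread was wider than counting error. In a fit of single transcripts the call was lost without NSC replicate 2 (-0.60, adjusted p = 0.0562), while over summed genes it held there. Malat1 ranked 822nd among all genes in NSCs and 340th in STO cells. The row of the mascRNA, 58 bases long, was listed at 0 in every library. The kit selects poly(A) tails, so this 0 does not show that the mascRNA was absent.

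Neat1 (chr19:5824710-5845480, minus strand) showed the widest gap of the RNAs that were lower in NSCs. It measured 1.28 and 0.829 FPKM in NSCs and 127, 102 and 123 FPKM in STO replicates 1, 2 and 3. Each STO library was far above both NSC libraries. The means were 1.05 ± 0.317 (SD, n = 2) and 117 ± 13.8 FPKM (SD, n = 3), a ratio of 111, and the difference was -5.85 ± 0.13 (limma adjusted p = 8.52e-08). Neat1 ranked 543rd among all genes in STO cells and 11344th in NSCs. All of the signal stood in the row of the short form (NR_003513), which ends at the polyadenylation signal shown above. The row of the long form (NR_131212) was listed at 0 in all 5 libraries. The short form lies within the first part of the long one, so fragments from there could belong to either. The mRNA kit selects RNA with a poly(A) tail, so the listed 0 does not show that the long form was absent.

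Malat1 and Neat1 lie 22037 bases apart on chromosome 19 and differed by unlike amounts. Malat1 was 85.0 and 88.4 times as high as Neat1 in the NSC libraries and 1.29, 1.45 and 1.501 times as high in the STO libraries. The nearest coding gene at higher coordinates, Frmd8, a regulator of the shedding of cell surface proteins, was higher in NSCs (50.6 and 47.0 against 21.9, 20.6 and 20.8 FPKM, difference 1.17 ± 0.06, limma adjusted p = 3.55e-06). Beside these RNAs, 61 histone genes were summed, taken by symbol as replication-dependent genes, whose mRNAs mostly end in a stem-loop. They summed to 211 and 221 FPKM in NSCs and to 52.6, 43.9 and 67.7 FPKM in STO cells, higher in NSCs where Malat1 was lower. The kit selects poly(A) tails, so the sum does not tell whether the captured histone RNA had a tail. The part of RNA without a tail in the result was not tested.

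Proteins of nuclear bodies went in either direction. Of 18 such genes, all tested, 8 were higher in NSCs, 3 were lower and 7 did not pass, with a median difference of 0.10. Over all genes tested, 43.7% were higher and 41.9% lower. Among the paraspeckle proteins, Sfpq, which binds Neat1 together with Nono, measured 239 and 287 FPKM in NSCs and 146, 152 and 144 FPKM in STO cells and was higher in NSCs (0.83 ± 0.09, limma adjusted p = 0.000161), by 0.41 (adjusted p = 0.00500) for its highest transcript alone. Nono itself measured 219 and 234 against 215, 231 and 238 FPKM (-0.01 ± 0.07, adjusted p = 0.909). Hnrnph3, a splicing factor of the hnRNP H family, was higher in NSCs (18.8 and 13.6 against 4.69, 5.31 and 6.76 FPKM, 1.38 ± 0.17, adjusted p = 0.000365). Srrm2, a scaffold of the nuclear speckles in which Malat1 gathers, was lower in NSCs (61.6 and 70.1 against 146, 145 and 137 FPKM, -1.11 ± 0.07, adjusted p = 1.43e-05). With the libraries rescaled to equal sums, 8 of these genes were lower in NSCs rather than 3, and without NSC replicate 2 it was 5.

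Among the RNAs of the neural lineage, Pantr1 was the highest. Pantr1 (chr1:42705045-42751670) measured 42.2 and 42.1 FPKM in NSCs and was listed at 0 in all 3 STO libraries. This is the level of its noncoding RefSeq row. Its GENCODE form on mm9 is shorter (chr1:42705223-42723757, 198 exon bases), and GENCODE types that gene as protein coding. The NSC replicates agree within the error of their deposited intervals, and the difference was 5.43 ± 0.05 (limma adjusted p = 5.09e-09), a size that depends on the pseudocount and was 8.72 with a pseudocount of 0.1. A listed 0 gives no fold, and it can be a failed estimate, since Dnajc19, a gene of mitochondrial protein import, was also listed at 0 in STO replicates 2 and 3 and at 25.6 FPKM in STO replicate 1. Because these are bulk libraries, fewer cells that make an RNA and less RNA per cell cannot be told apart. Pou3f3, which encodes a POU transcription factor of cortical progenitors and begins 2320 bases from Pantr1, measured 116 and 92.1 FPKM in NSCs and 0.0145, 0 and 0 FPKM in STO cells. Pantr1 amounted to 36.4% and 45.7% of the level of Pou3f3 in the NSC libraries. Pantr2, the other noncoding RNA of that locus, measured 1.17 and 1.51 FPKM in NSCs and was listed at 0 in STO cells, and it was singled out here after its values were seen.

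Miat measured 5.12 and 3.61 FPKM in NSC replicates 1 and 2 and was listed at 0 in all 3 STO libraries. The mean in NSCs was 4.37 ± 1.07 FPKM (SD, n = 2) and the difference was 2.41 ± 0.12 (limma adjusted p = 2.97e-06), or 5.46 with a pseudocount of 0.1. The NSC replicates differed 1.42-fold in the sum and more in its parts. In replicate 1 the row NR_003718 held 100% of the sum and NR_033657 was listed at 0, while in replicate 2 they held 49.6% and 50.4%. The 2 rows have the same outer ends, so the split rests on how Cufflinks shared fragments between overlapping forms, and the sum is the firmer value. No coding gene lay close to Miat on the lower side, where Mn1, a transcriptional coregulator, was 756202 bases away. Mn1 was lower in NSCs, at 5.24 and 5.85 against 42.5, 38.6 and 33.1 FPKM (-2.57 ± 0.11, limma adjusted p = 1.75e-06). Cryba4, a lens crystallin 17543 bases away, stayed at or under 0.234 FPKM in every library.

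Sox2ot (chr3:34459303-34576915, plus strand) measured 2.998 and 2.99 FPKM in NSCs and 0, 0 and 0.0196 FPKM in STO replicates 1, 2 and 3. The NSC replicates differed by less than the error of their intervals. The difference was 1.99 ± 0.04 (limma adjusted p = 5.60e-08), or 4.87 with a pseudocount of 0.1. Sox2 lies inside its locus and measured 308 and 276 FPKM in NSCs, so Sox2ot stood at 0.973% and 1.08% of Sox2, and Sox2 was listed at 0 in all 3 STO libraries. The level of Sox2ot is that of its 1 RefSeq row, and GENCODE has forms that start outside it, as at chr3:34003360. The tables do not tell how a fragment from a stretch shared by the 2 genes was assigned. Rmst (chr10:91544491-91627923, minus strand, 13 exons in GENCODE) was listed at 0 in all 5 libraries, in NSCs with Sox2 at these levels as well as in STO cells without it. Its neighbours Tmpo, a protein of the inner nuclear membrane, and Nedd1, a centrosome protein, are 910126 and 519566 bases away and were present in every library at 7.53 FPKM or more, both lower in NSCs.

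The partners of Miat and Rmst were tested as a list of 6, of which 3 were higher in NSCs, 1 was lower and 2 did not pass. The share of all genes tested that passed was 85.6%, with 43.7% higher in NSCs. Sox2 had the largest difference (8.19 ± 0.06, limma adjusted p = 4.68e-09). Qk, the RNA-binding protein Quaking of glia and neural progenitors, measured 229 and 223 FPKM in NSCs and 56.9, 63.3 and 54.2 FPKM in STO cells (1.94 ± 0.08, adjusted p = 1.21e-06), a difference that came to 0.72 (adjusted p = 0.000157) for its highest transcript alone. Celf3, a splicing factor of neurons, was higher as well but low (2.16 and 2.82 against 0.118, 0.285 and 0.207 FPKM, 1.53 ± 0.10, adjusted p = 1.23e-05, and 3.12 with a pseudocount of 0.1). Ptbp1, the repressor of neuronal splicing, was lower in NSCs (91.4 and 97.7 against 227, 223 and 228 FPKM, -1.25 ± 0.06, adjusted p = 2.31e-06). Sf1, whose branch point letters Miat repeats, measured 75.9 and 80.6 against 86.1, 86.8 and 81.8 FPKM (-0.12 ± 0.06, adjusted p = 0.100). Among genes listed as markers of differentiated cells, 4 of 5 tested for neurons were higher in NSCs. For astrocytes it was 5 of 5 and for oligodendrocytes 4 of 4. Pantr1, Miat and Sox2ot were higher as well. The part of differentiated cells in the levels of these 3 RNAs was not tested.

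**Figure D2:**
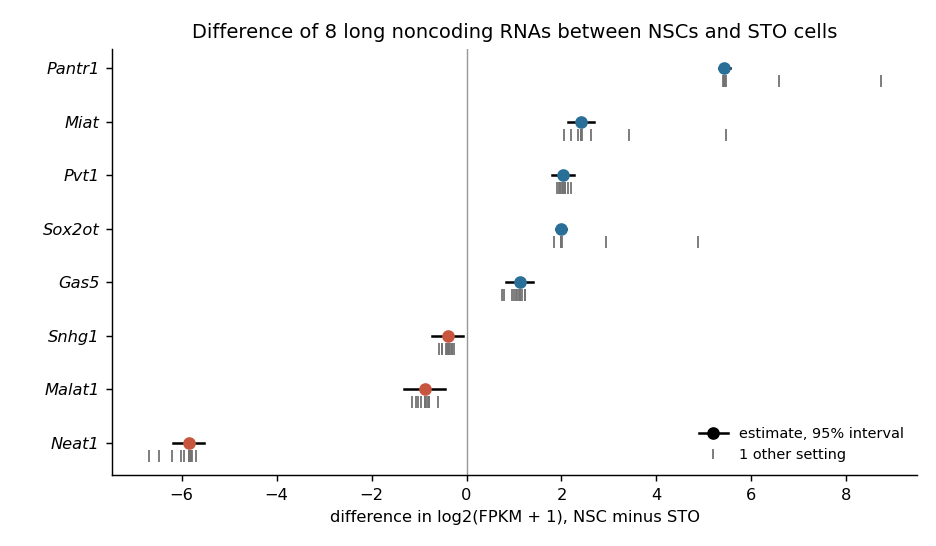
Difference in log2(FPKM + 1), NSC minus STO, for the 8 tested RNAs, with the estimate as a point, its 95% interval as a line and a grey tick below it for every other processing setting. No tick crosses 0, and the ticks far to the right of Pantr1, Miat and Sox2ot, at 8.72, 5.46 and 4.87, are those with a pseudocount of 0.1.

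Gas5 (chr1:162965047-162968670, plus strand) was the highest of the RNAs in NSCs. It measured 152 and 150 FPKM in NSCs and 64.7, 62.7 and 80.9 FPKM in STO replicates 1, 2 and 3. Both NSC libraries lay above all STO libraries, and the NSC replicates differed by 0.490 of the standard deviation that their intervals give. The means were 151 ± 1.74 (SD, n = 2) and 69.4 ± 9.97 FPKM (SD, n = 3), 2.18 times as high in NSCs, with a difference of 1.12 ± 0.11 (95% interval 0.84 to 1.399, limma adjusted p = 0.000128). Gas5 ranked 445th among all genes in NSCs and 1032nd in STO cells. These values leave out NR_002840, a row inside the locus that is described below.

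The forms of Gas5 did not move by the same amount. NR_153812 measured 63.6 and 67.6 FPKM in NSCs and 18.1, 15.7 and 23.2 FPKM in STO cells (1.76 ± 0.17, limma adjusted p = 0.000620 over all transcripts, of which 77.1% passed, 39% higher and 38.1% lower). NR_153813 measured 88.6 and 82.1 against 46.6, 47.0 and 57.7 FPKM (0.75 ± 0.11, adjusted p = 0.00305), and NR_153814 and NR_153815 were listed at 0 in every library. NR_153812 thus made up 41.8% and 45.2% of Gas5 in NSCs and 25.0% to 28.7% in STO cells, ranges that do not overlap. The difference between these shares was not tested. A further row, NR_002840 (chr1:162965297-162968668), lies inside the Gas5 locus but is matched to no symbol. It went the other way, with 12.2 and 7.55 FPKM in NSCs and 23.7, 20.5 and 25.5 FPKM in STO cells (-1.18 ± 0.21, adjusted p = 0.00591). Counted with Gas5 it brings the difference of the sum to 0.80 (limma adjusted p = 0.000538), an alternative chosen after the data were seen. In fragments implied by the intervals, which are not read counts, NR_002840 held 678 and 508 in NSCs and 842, 839 and 1119 in STO cells. The Gas5 sum without it held 1734 and 1895 in NSCs and 716, 788 and 1139 in STO cells. How far the Gas5 values depend on the way Cufflinks shared fragments among overlapping rows was not tested. The row of the snoRNA Snord47 within Gas5 was listed at 0 in all libraries. With a kit that selects poly(A) tails, this does not show that the snoRNA was absent.

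**Figure D3:**
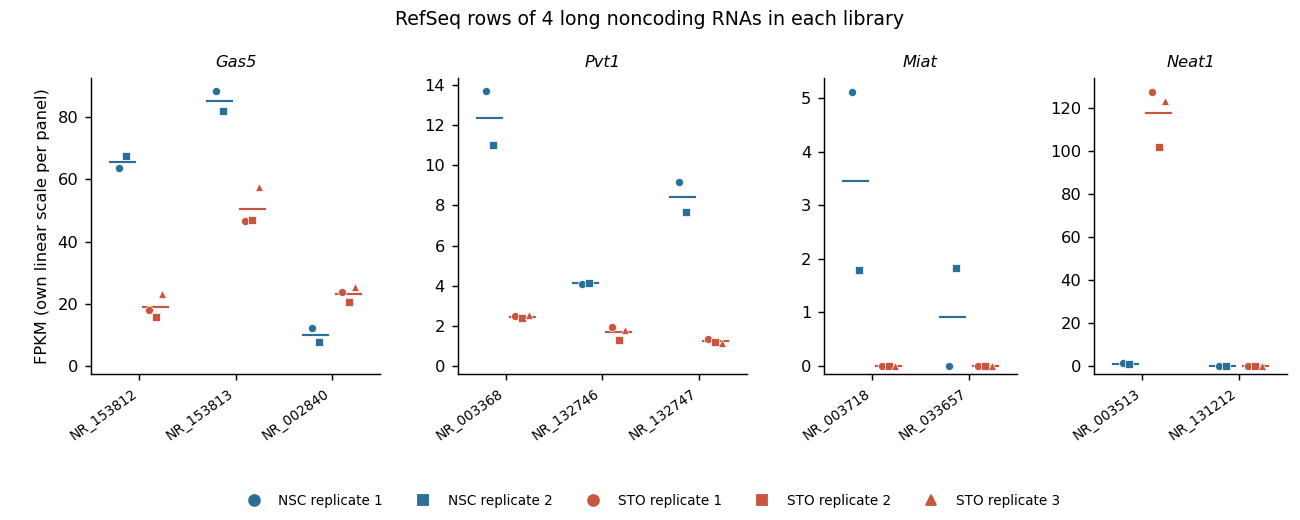
FPKM of the RefSeq rows of Gas5, Pvt1, Miat and Neat1, each panel on its own linear scale, with a point for each library (NSC blue, STO red) and a bar at the group mean. The Gas5 panel includes the unmatched row NR_002840, which is higher in STO cells while NR_153812 and NR_153813 are higher in NSCs, and the Miat panel shows the unlike split of the NSC replicates.

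Snhg1 (chr19:8797977-8800816, plus strand) differed the least. It measured 37.7 and 31.5 FPKM in NSCs and 46.9, 39.0 and 52.1 FPKM in STO replicates 1, 2 and 3, so that the highest NSC and the lowest STO library nearly met. The means were 34.6 ± 4.40 (SD, n = 2) and 46.0 ± 6.58 FPKM (SD, n = 3), and the difference was -0.40 ± 0.14 (95% interval -0.73 to -0.06, limma adjusted p = 0.0316). Over 15 other settings the adjusted p ranged from 0.00504 to 0.28, and the call was lost in 5 of them. These were the fits without NSC replicate 1 (-0.52, adjusted p = 0.0862), without NSC replicate 2 (-0.27, 0.28), without STO replicate 1 (-0.38, 0.0754) and without STO replicate 3 (-0.30, 0.0712), and the fit with no filter on low genes (adjusted p = 0.0535). It was also not past the threshold in the fit of single transcripts (adjusted p = 0.0657). As a ratio within each library, which no scaling of a library alters, Gas5 was 4.03 and 4.75 times as high as Snhg1 in NSCs and 1.38, 1.61 and 1.55 times as high in STO cells. With Gas5 summed without NR_002840, the 2 host RNAs did not keep 1 ratio. Snord22, a snoRNA row within Snhg1, was at or under 2.54 FPKM in every library. With a kit that selects poly(A) tails, this does not tell how much of the snoRNA the cells held.

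Host genes of snoRNAs were spread over both directions. Of 18 tested, 5 were higher in NSCs, 9 were lower and 4 did not pass, with a median difference of -0.32. Over all genes tested, 43.7% were higher and 41.9% lower. Without NSC replicate 1, and likewise without NSC replicate 2, only 4 were lower. Snhg12 measured 29.7 and 30.2 against 12.6, 11.0 and 11.4 FPKM (1.29 ± 0.07, limma adjusted p = 4.35e-06) and Epb41l4aos 19.2 and 24.3 against 8.70, 8.85 and 10.48 FPKM (1.13 ± 0.12, adjusted p = 0.000162), both higher in NSCs as Gas5 was. Snhg18 was the farthest apart. It measured 0.193 and 0.0783 FPKM in NSCs and 12.02, 11.2 and 12.6 FPKM in STO cells (-3.51 ± 0.07, adjusted p = 6.14e-08, and -5.72 with a pseudocount of 0.1). The other 8 that were lower in NSCs, Snhg1 among them, had differences between -0.68 and -0.34. Zfas1, which was higher (0.37 ± 0.13, adjusted p = 0.0411, and 0.24 with 0.0470 without STO replicate 2), lost its call in 6 settings, among them the fits without NSC replicate 1 (adjusted p = 0.304), NSC replicate 2 (0.129) and STO replicate 1 (0.0598) and the fit with libraries rescaled to equal sums (0.20, adjusted p = 0.177).

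**Figure D4:**
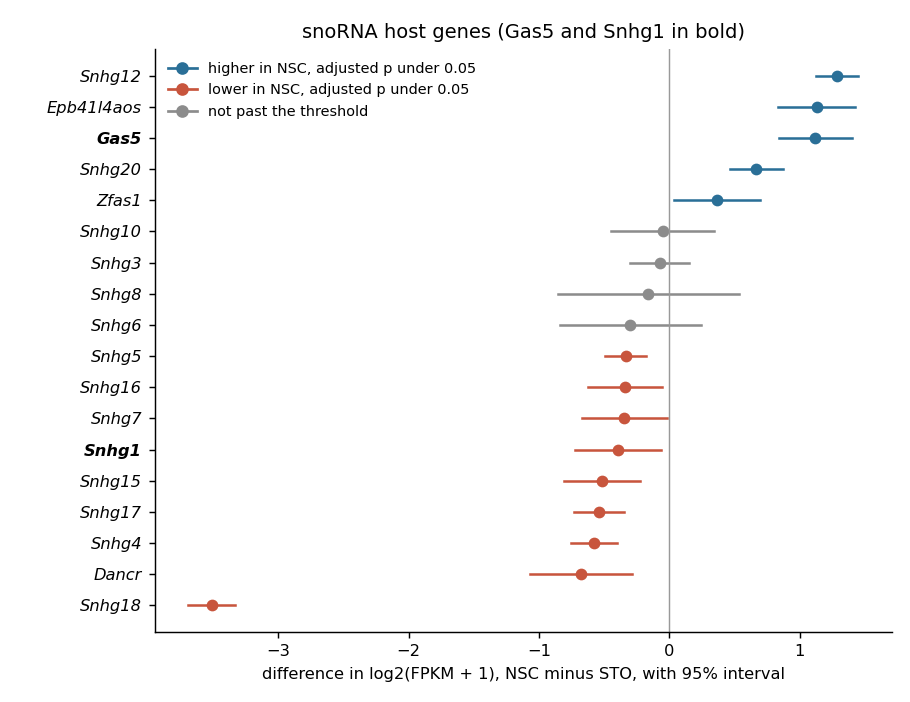
Difference in log2(FPKM + 1), NSC minus STO, of 18 snoRNA host genes with 95% intervals, blue where higher in NSCs, red where lower and grey where not past the threshold. Gas5 stands with Snhg12 and Epb41l4aos at the top, Snhg1 in the cluster of small negative differences and Snhg18 alone at -3.51.

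Factors of NMD, the pathway that degrades spliced Gas5 and Snhg1, were tested as a list of 10, of which 3 were higher in NSCs, 6 were lower and 1 did not pass, with a median difference of -0.22. That is close to the 85.6% of all genes tested that passed. Smg1, the kinase that activates the pathway, measured 7.11 and 6.63 FPKM in NSCs and 18.96, 19.6 and 17.8 FPKM in STO cells (-1.33 ± 0.06, limma adjusted p = 2.98e-06). Upf2, the adaptor that joins UPF1 to the exon junction, was lower too (6.36 and 5.91 against 11.6, 12.3 and 12.8 FPKM, -0.89 ± 0.06, adjusted p = 2.26e-05). Smg9, a subunit of the SMG1 complex, was higher (16.6 and 18.7 against 6.44, 5.56 and 7.06 FPKM, 1.34 ± 0.10, adjusted p = 2.82e-05), and so was Smg6, the endonuclease (16.7 and 16.7 against 8.73, 8.71 and 8.08 FPKM, 0.90 ± 0.06, adjusted p = 1.12e-05). The helicase Upf1 was lower by a small amount, at 23.0 and 21.4 against 27.5, 25.8 and 24.1 FPKM (-0.21 ± 0.07, adjusted p = 0.0350).

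Pvt1 (chr15:61869541-62091767, plus strand) measured 27.0 and 22.8 FPKM in NSC replicates 1 and 2 and 5.77, 4.84 and 5.44 FPKM in STO replicates 1, 2 and 3. Both NSC libraries lay well above all STO libraries. The means were 24.9 ± 2.93 (SD, n = 2) and 5.35 ± 0.471 FPKM (SD, n = 3), 4.65 times as high in NSCs, with a difference of 2.03 ± 0.10 (95% interval 1.79 to 2.26, limma adjusted p = 2.88e-06). All 3 of its rows were higher in NSCs. NR_003368 and NR_132747, which share a start, differed by 1.95 ± 0.10 and 2.08 ± 0.10 (limma adjusted p = 7.19e-05 and 5.03e-05), and NR_132746, which starts further downstream, by 0.94 ± 0.13 (adjusted p = 0.00233 over transcripts). The share of NR_132746 in the sum was 15.1% and 18.1% in NSCs and 26.3% to 33.8% in STO cells, a difference in shares that was not tested. Myc, 47624 bases away, was also higher in NSCs, at 64.3 and 80.4 against 39.9, 41.2 and 40.2 FPKM (0.82 ± 0.10, 95% interval 0.58 to 1.05, limma adjusted p = 0.000262), an interval below that of Pvt1. Pvt1 came to 42.0% and 28.4% of Myc in the NSC libraries and to 14.5%, 11.8% and 13.5% in the STO libraries. Between the NSC replicates, Pvt1 was higher in replicate 1 and Myc in replicate 2.

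Over all 9 loci, 17 coding genes overlapped or lay nearest on either side, of which 14 were tested, 5 were higher in NSCs and 7 were lower. This is close to the 85.6% of all genes tested that passed. Zbtb37, a zinc finger gene 66 bases from Gas5, measured 2.50 and 2.01 against 3.03, 3.13 and 2.14 FPKM (-0.20 ± 0.14, limma adjusted p = 0.207, and -0.33 with 0.0181 without STO replicate 3). Its difference lay between -0.48, past the threshold with quantile normalization, and -0.09 without NSC replicate 2 (adjusted p = 0.700), and it was -0.13 without STO replicate 2 (adjusted p = 0.427). The neighbours of Snhg1 were both lower in NSCs. Slc3a2, the heavy chain of amino acid transporters 117 bases away, measured 63.8 and 65.4 against 74.2, 73.6 and 79.7 FPKM (-0.23 ± 0.06, limma adjusted p = 0.00986, 0.0556 without NSC replicate 1, and a difference of -0.40 with libraries rescaled to equal sums). Wdr74, a ribosome biogenesis factor, measured 26.3 and 25.5 against 34.8, 34.0 and 39.1 FPKM (-0.46 ± 0.07, adjusted p = 0.00111). The strand setting of the quantification is not given in the sources used here, so fragments from neighbours on opposite strands that overlap cannot be told apart. For 3 neighbours farther off, Dnajc19, Atp11b and Gsdmc, the distance from the RefSeq rows of the RNA was 479026 bases or more. A GENCODE form of Sox2ot begins nearer to Dnajc19, at chr3:34003360. Dnajc19 differed by 3.54 ± 1.44 (adjusted p = 0.0572), a value that rests on STO replicate 1 and became 5.11 (adjusted p = 2.50e-07) without it.

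**Figure D5:**
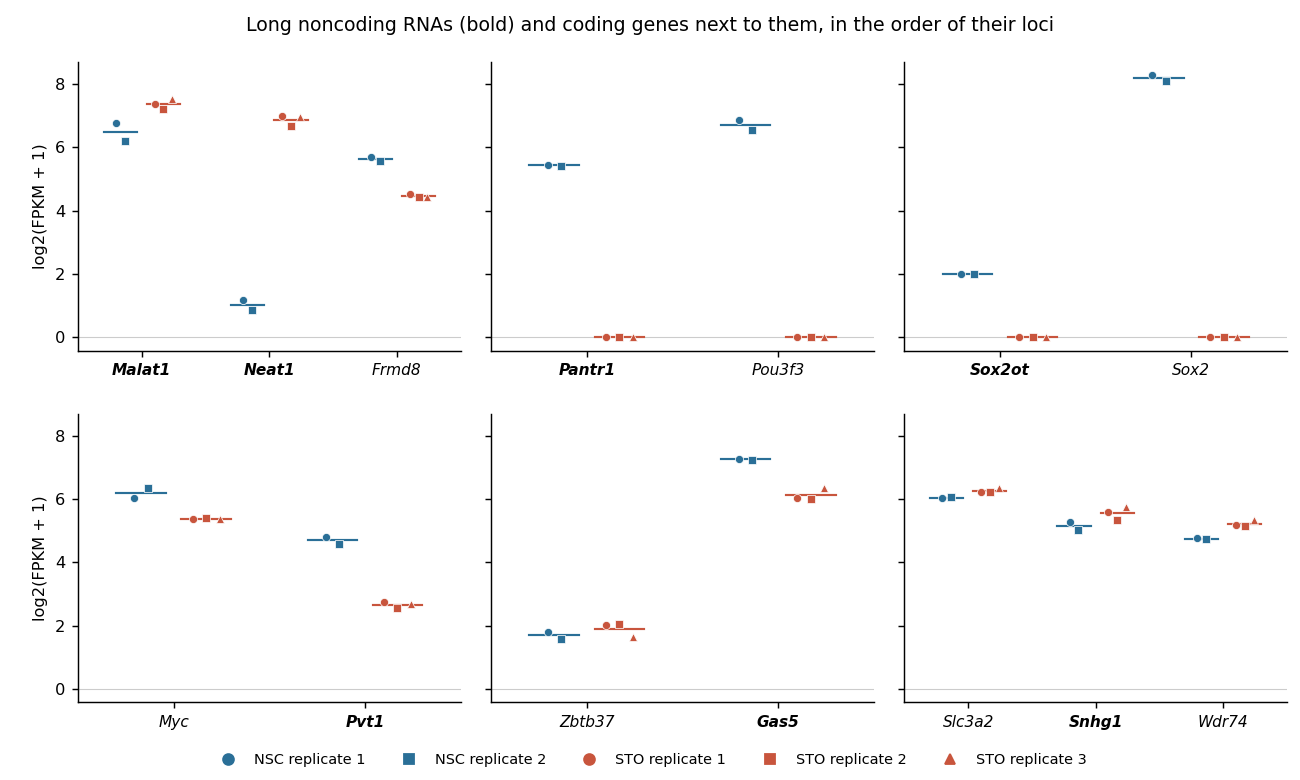
Level as log2(FPKM + 1) of 7 long noncoding RNAs (bold) and of coding genes beside them, in the order of their loci within each panel, with a point for each library (NSC blue, STO red) and a bar at the group mean. Sox2 lies inside Sox2ot. Pantr1 and Pou3f3, and Sox2ot and Sox2, had values in NSCs and values at or near 0 in STO cells, while Malat1 and Neat1 differ from each other far more in NSCs than in STO cells.

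Ordered by level, the RNAs ran from Gas5 through Malat1, Pantr1, Snhg1, Pvt1, Miat, Sox2ot and Neat1 to Rmst in NSCs, and no 2 neighbours in that order had overlapping replicate ranges. In STO cells the order was Malat1, Neat1, Gas5, Snhg1 and Pvt1, again with no overlap between neighbours. Sox2ot, Miat, Rmst and Pantr1 followed, all 4 under 1 FPKM and not apart from each other. Neat1 was the second in STO cells and the eighth of 9 in NSCs, Pantr1 was the third in NSCs and among the 4 at or near 0 in STO cells, and Gas5 and Malat1 stood in the opposite order in the 2 cell types. Summed over the 9 RNAs, the level was 377 and 327 FPKM in NSCs and 409, 356 and 446 FPKM in STO cells, so the totals overlapped although the makeup differed.

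For each RNA, the gene with noncoding identifiers only whose 5 values lay nearest, by Euclidean distance in log2(FPKM + 1) among 338 candidates, was named. Sox2ot had the closest match, 4933432K03Rik at a distance of 0.105, with 3.04 and 2.72 FPKM in NSCs and 0 in the STO libraries. Miat was nearest to A030001D20Rik (0.262) and Pantr1 to 1500009C09Rik (0.419), which measured 33.6 and 34.8 FPKM in NSCs and was listed at 0 in STO cells. Neat1 was nearest to a row named as a pseudogene of Ndufs5 (0.708), whose fragments could come from the parent gene. The nearest to Gas5 and to Malat1 was the same gene, Gm12669, at 0.883 and 1.58, which differed less between the groups than either (0.41 ± 0.08, and 0.24 with libraries rescaled to equal sums). Snhg1 was nearest to Zfas1 (0.921) and Pvt1 to Fam120aos (0.928).

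Among 21 other named long noncoding RNAs that were tested, 9 were higher in NSCs, 8 were lower and 4 did not pass, with a median difference of 0.21. The share of all genes tested that passed was 85.6%. H19, the imprinted RNA of the Igf2 locus, had the largest difference among them. It measured 36.7 and 25.3 FPKM in NSCs and 749, 870 and 832 FPKM in STO cells (-4.70 ± 0.16, limma adjusted p = 5.39e-07). Fendrr and Dnm3os, RNAs of the mesoderm and mesenchyme, were lower in NSCs, at 0.0129 FPKM or less against 6.10 to 7.06 FPKM (-2.88 ± 0.07, adjusted p = 1.26e-07) and at 0.0366 FPKM or less against 3.64 to 4.02 FPKM (-2.22 ± 0.05, adjusted p = 1.03e-07). Mir9-3hg, the host of a microRNA of neural progenitors, measured 10.8 and 12.5 FPKM in NSCs and was listed at 0 in all 3 STO libraries (3.66 ± 0.07, adjusted p = 3.35e-08). With a pseudocount of 0.1 the differences of Fendrr, Dnm3os and Mir9-3hg were -5.94, -4.89 and 6.88.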

How the data were processed

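Libraries were made from total RNA with a stranded mRNA kit. Per the submitters' processing notes, reads were aligned with HISAT2 (version given as 4.8.2) to mm9 and the authors computed FPKM for 40201 RefSeq transcripts with Cufflinks 2.2.1, 1 deposited file per sample, replicates not pooled. FPKM divides by transcript length and depth, so it carries no counts, and the counting error was read from the deposited confidence intervals, taking the distance to the upper bound as 2 Poisson SD. Identifiers were matched to symbols with a RefSeq table of GRCm38.p6 (99.4% matched) and summed by symbol. Coordinates are those of mm9, 1-based, with exons from GENCODE on that build.

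Differences (NSC minus STO, 2 against 3 libraries) were estimated on log2(FPKM + 1) by limma (version 3.58.1, under R 4.3.3) through lmFit and a trended eBayes. The fit took in 12293 genes that averaged 1 FPKM or more in a cell type, with Benjamini-Hochberg adjustment at 0.05. The script was tested on simulated data. Other steps used Python 3.11.15 and pandas 2.3.3. The 9 RNAs and the gene lists were chosen with earlier results of these data known. Named genes were the 9 RNAs, from each list up to 4 genes with the largest difference among those past the threshold, the overlapping and nearest coding genes, and for each RNA the nearest noncoding gene. Nono, Sf1, Upf1, Zfas1 and Pantr2 and those under other observations were added after their values were seen. A few genes that this rule names are not reported here. The 17 alternatives varied the pseudocount, filter, scaling, trend, replicate block, replicates, transcripts summed and threshold, and 1 was added later.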

Additional observations from a re-analysis of the deposited data

Results flagged for a closer look

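NR_002840, a RefSeq row inside the Gas5 locus that is matched to no symbol and so stands outside the Gas5 sum, held signal in every library. Its level was 12.2 FPKM in NSC replicate 1, 7.55 FPKM in NSC replicate 2, 23.7 FPKM in STO replicate 1, 20.5 FPKM in STO replicate 2 and 25.5 FPKM in STO replicate 3. It was singled out as signal in a row that the comparison of the 9 RNAs does not use, and there are no control samples to set it against. The row overlaps NR_153812 and NR_153813, and how Cufflinks shared fragments among the 3 was not tested.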

How the results depend on the processing

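Over 17 other settings and 1 added after the data were seen, 1013 of 1054 values kept their direction and their side of the threshold or stayed within 1.5 times the reported count, 14 fell short of the threshold, 9 passed it, 18 counts moved and 0 reversed. Malat1, Neat1, Miat, Sox2ot, Pantr1, Gas5 and Pvt1 kept their calls under each alternative that could be fitted for them, with differences of -1.16 to -0.60 for Malat1, -6.69 to -5.69 for Neat1, 2.05 to 5.46 for Miat, 1.85 to 4.87 for Sox2ot, 5.41 to 8.72 for Pantr1, 0.75 to 1.23 for Gas5 and 1.91 to 2.196 for Pvt1. Miat and Sox2ot do not reach a mean of 5 FPKM, so that filter left 3 of the 9 RNAs higher in NSCs rather than 5. Snhg1 ranged from -0.57 to -0.27. With an added minimum of 1 for the absolute difference, 2617 genes were higher and 2103 lower in NSCs, against 5375 and 5153, and of the 9 RNAs 5 higher and 1 lower. Malat1, at -0.88, and Snhg1 fell short of that minimum. That threshold also left 3 neighbouring genes higher and 1 lower, 3 snoRNA hosts higher and 1 lower, 1 nuclear body protein higher and 1 lower, 1 NMD factor higher and 1 lower, and 5 other noncoding RNAs higher. Without NSC replicate 1, and also without NSC replicate 2, 4 snoRNA hosts were lower rather than 9. Rescaling each library to the same sum shifted the median difference of all genes by -0.17 and gave 4669 higher and 5876 lower, and 44.3% of calls were then higher rather than 51.1%. Nuclear body proteins lower in NSCs were then 8, and 5 with quantile normalization or without NSC replicate 2, and 2 partners of Miat and Rmst were lower with either scaling. At a mean of at least 5 FPKM, 5 other noncoding RNAs were higher and 4 lower. Fits without an NSC replicate assume that the lone library varies like the others.

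The labels number replicates 1 and 2 in both cell types, and nothing in the sources pairs them. Correlations of deviations from the group means were 0.011 and 0.060 for the same number and -0.060 to 0.046 for different numbers. With the replicate number as a block, which leaves STO replicate 3 without a partner and so out of the difference, 5250 genes were higher and 4994 lower in NSCs, the 9 RNAs kept 5 higher and 3 lower, and Snhg1 was at -0.30 (limma adjusted p = 0.00911). Under the block Slc3a2 lost its call, Zbtb37 and the Snhg1 row NR_002896 gained 1, and no other call of a named gene or row changed.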

Other observations

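Further noncoding RNAs of the lists were picked for mention after their values were seen. Meg3 and Rian, neighbouring RNAs expressed from the maternal copy of an imprinted cluster, measured 1.79 and 2.08 FPKM and 2.65 and 2.62 FPKM in NSCs, with Meg3 listed at 0 and Rian at 0.0867 FPKM or less in STO cells, and both were higher in NSCs (limma adjusted p = 6.24e-07 and 1.20e-07). Hotairm1, an RNA of the HoxA cluster, was listed at 0 in NSCs and measured 3.15, 2.35 and 4.18 FPKM in STO cells. Dlx1as, which is transcribed opposite a gene of forebrain interneurons, was also listed at 0 in NSCs and measured 3.82, 3.27 and 3.07 FPKM in STO cells, where the strand of its fragments cannot be told.

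Rmrp, the RNA of the RNase MRP complex and a product of RNA polymerase III, set the NSC replicates apart more than the groups. It measured 48.1 and 1.58 FPKM in NSC replicates 1 and 2 and 4.03, 2.11 and 3.60 FPKM in STO cells, and its difference did not pass the threshold (1.44 ± 1.14, limma adjusted p = 0.272). Rpph1, the RNA of RNase P, which cuts Malat1 and Neat1, measured 2.06 and 0 FPKM in NSCs and 0.818, 0.119 and 0.985 FPKM in STO cells (0.13 ± 0.49, adjusted p = 0.805).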
